A study of Mus musculus with 11 samples.

Results

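Chemokines are small secreted proteins that attract leukocytes, and their receptors are the proteins on the cell surface that bind them. The genes described here are the 61 rows of the raw count file, of 27179 in all, whose symbol names a Ccl, Cxcl, Cx3cl or Xcl ligand, a Ccr, Cxcr, Cx3cr or Xcr receptor, or 1 of the 4 atypical receptors Ackr1 to Ackr4. They hold 39 ligands and 22 receptors. RNA was sequenced from whole mouse aorta in 11 libraries, all from the C57BL/6J strain. KO_HFD_LNAME holds 3 libraries from Mpst knockout mice, which lack the sulfurtransferase MPST, an enzyme that forms hydrogen sulfide. WT_HFD_LNAME holds 4 libraries from wild-type mice. Both groups were given feed with 45% of calories from fat (HFD) for 15 weeks from an age of 6 to 7 weeks, and then an inhibitor of nitric oxide synthases, L-NAME per the treatment label, for 5 more weeks; they are called treated below. WT_CD holds 4 libraries from wild-type mice on chow (CD, 10% of calories from fat), for which the labels give 15 weeks and no inhibitor. Diet and inhibitor therefore cannot be told apart, no knockout on chow is among the groups, and a knockout effect is measured only in treated mice. Taken as given, these times would also make the treated mice older at collection than the chow mice. Age and time on study then cannot be told apart from treatment either. The labels do not give the kind of knockout allele, nor whether libraries come from separate animals. The spread behind each p-value is thus that between libraries, which may be technical.

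Chemokines act through receptors coupled to G proteins, which turn a gradient of ligand into directed movement of a cell. In the artery wall, Ccl2 and its receptor Ccr2 are known for recruiting monocytes, Cx3cl1 and Cx3cr1 for holding monocytes and macrophages, and Cxcl12 with Cxcr4 for homeostatic traffic. Atypical receptors bind chemokines without the usual signalling and clear or transport them. Ccl19, Ccl21 and Ccr7, and Cxcl13 with Cxcr5, position T and B cells in lymphoid tissue.

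The deposited values were whole-number read counts per gene, and library totals ran from 8665968 to 15340697 counts. Values below are counts scaled to a common library size (CPM) with TMM factors, which correct for differences in composition. Mpst, the targeted gene, had 0.231, 0.283 and 0.275 CPM in the KO_HFD_LNAME libraries 1 to 3, and 25.7 to 36.3 CPM in the WT_HFD_LNAME libraries and 26.5 to 44.1 CPM in the WT_CD libraries, which fits the genotype labels. Markers of endothelium, smooth muscle and fibroblasts were detected in every library. Some libraries stood apart. KO_HFD_LNAME 1 had the highest lymphocyte markers. WT_HFD_LNAME 3 had high B cell markers, and it and WT_HFD_LNAME 4 had summed cardiac muscle markers of 692 and 1863 CPM, against 51.2 to 148 CPM in the other 9 libraries. In WT_CD 1 and 2, the ribosomal RNA gene Rn45s took 10.1% and 17.4% of counts, against 0.815% to 2.98% in the others. Tests were made with edgeR's quasi-likelihood test with Benjamini-Hochberg adjustment over the 14303 genes that passed a filter on low counts, and a gene was called where its adjusted p was under 0.05. Of the 61 chemokine and receptor genes, 29 passed that filter, 19 ligands and 10 receptors. A gene that passed only through the group where it is high had to differ, so counts over these 29 do not stand for the whole family.

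The chemokine transcriptome of the aorta was led by a few ligands and a scavenging receptor. Cxcl12, which binds Cxcr4, made up 28.6% to 38.6% of the family's summed CPM in the KO_HFD_LNAME libraries, 33.7% to 44.7% in the WT_HFD_LNAME libraries and 29.6% to 55.4% in the WT_CD libraries. Per kilobase of annotated exon, which allows genes to be compared, the level averaged over the 11 libraries was 25.4 CPM per kb for Ccl11, an eosinophil attractant, 21.3 for Ccl6, 20.6 for Ackr3, which scavenges Cxcl12, and 19.9 for Cxcl12. Next came the levels of Ccl8 at 14.5, Ccl9 at 7.90, Cxcl16 at 4.60 and Ccl5 at 3.86 CPM per kb. The place of Ccl5 rested on KO_HFD_LNAME 1, with 27.7 CPM per kb, against 0.249 to 3.16 in the other libraries. Of the genes ranked per kilobase, the first 4 did not separate beyond the spread between libraries. Ccl11, for example, had 19.7 to 35.9 CPM per kb in KO_HFD_LNAME and 9.06 to 35.4 in WT_CD. Ackr3 had 21.8 to 28.0 CPM per kb in KO_HFD_LNAME and 10.5 to 22.4 in WT_CD.

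None of these genes was called by edgeR in any comparison. Cxcl12 had 191, 181 and 178 CPM in the KO_HFD_LNAME libraries, against 153, 163, 180 and 159 CPM in the WT_HFD_LNAME libraries and 179, 110.3, 132 and 163 CPM in the WT_CD libraries. The groups overlapped, and the log2 fold change of KO_HFD_LNAME against WT_HFD_LNAME was 0.16 ± 0.16 (SE). Ccl6, which in the mouse binds Ccr1, had 21.2, 41.1 and 87.8 CPM in KO_HFD_LNAME, against 26.6, 40.3, 39.9 and 23.1 CPM in WT_HFD_LNAME and 11.8, 21.9, 59.5 and 46.5 CPM in WT_CD. KO_HFD_LNAME 3 was the highest library and WT_CD 1 the lowest. The overlapping gene E230016K23Rik cannot be told apart from Ccl6, since the strand setting of the counting is not given in the sources used here. Ccl9, also a mouse ligand of Ccr1, and Ccl8 were likewise highest in KO_HFD_LNAME 3, with 51.6 and 22.6 CPM there, against 12.8 to 26.2 and 5.00 to 6.34 CPM in the other 2 knockout libraries. These genes lie on chromosome 11 in a cluster of 11 chemokine genes (GRCm38, 82035577 to 83664683), of which 8 were tested. The summed macrophage and monocyte markers were also highest in that library, at 960 CPM, against 336 to 724 CPM in the others, and their part in the result was not tested.

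**Figure D1:**
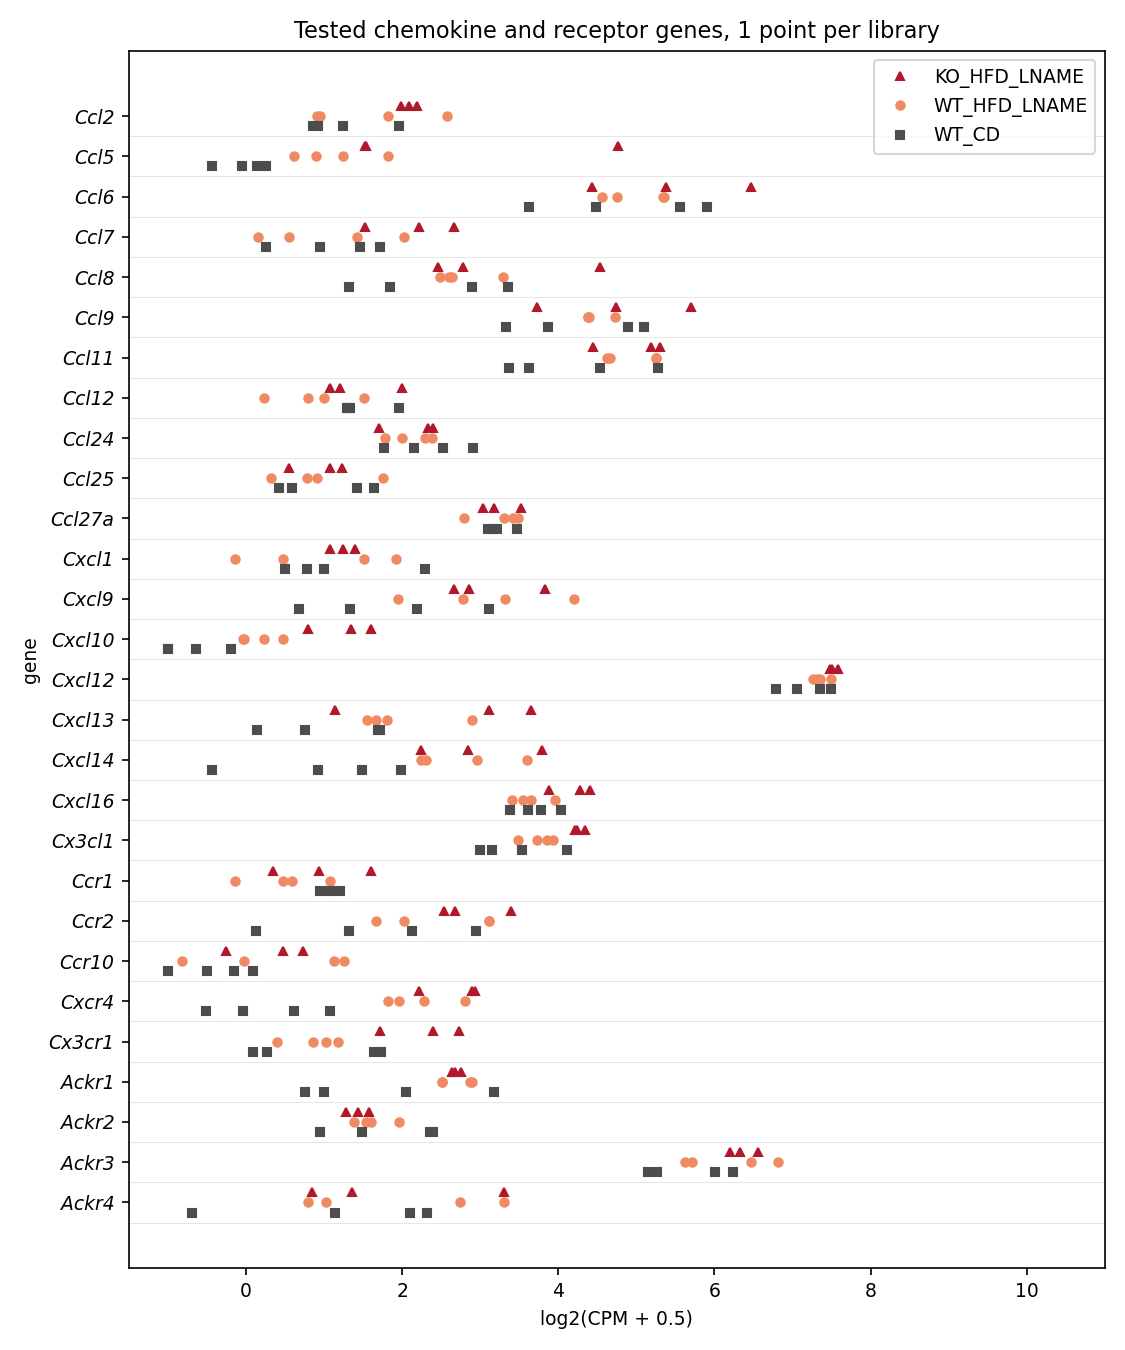
Level of 28 of the 29 tested chemokine and receptor genes in each library, as log2(CPM + 0.5) on the x axis; triangles are the 3 KO_HFD_LNAME libraries, circles the 4 WT_HFD_LNAME libraries and squares the 4 WT_CD libraries. Cxcl12 and Ackr3 stand highest, and most genes overlap between the groups.

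In wild-type aorta, edgeR called 1 gene of the family with treatment, the receptor Cxcr4, which guides leukocytes and progenitor cells. This call was not stable. Of the 29 tested genes, 1 was called in WT_HFD_LNAME against WT_CD, Cxcr4, which was higher; over all tested genes 1.48% were called, and 1.4% were called higher. Cxcr4 (Entrez 12767; chromosome 1, 128588199 to 128592299) had 6.93, 4.13 and 7.15 CPM in KO_HFD_LNAME, against 4.37, 3.39, 3.03 and 6.50 CPM in WT_HFD_LNAME and 0.477, 0.200, 1.03 and 1.61 CPM in WT_CD. Every treated library lay above every chow library, and the 2 treated groups overlapped. Cxcr4 passed the filter on low counts through the treated libraries, where it is higher. This order is thus no independent support for a difference. Cxcr4 rose by a log2 fold change of 2.31 ± 0.49 (SE; edgeR adjusted p = 0.0473) in WT_HFD_LNAME, and its log2 fold change in KO_HFD_LNAME against WT_CD was 2.79 ± 0.51 (adjusted p = 0.0519, not called). The authors' deposited table also calls Cxcr4 in WT_HFD_LNAME against WT_CD, with a log2 fold change of 1.46 and an adjusted p of 0.00193. Without WT_CD 1 and 2, the 2 libraries with much Rn45s, which are also the lowest in Cxcr4, the log2 fold change was 1.70 and the call was lost (edgeR adjusted p = 0.223). The call was lost in 14 of the 19 alternative settings, with adjusted p-values from 1.9e-04 to 0.223 and the log2 fold change between 1.70 and 2.88. Its ligand Cxcl12 had a log2 fold change of 0.16 ± 0.15 (SE; edgeR adjusted p = 0.667).

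Another 3 ligands were higher in every WT_HFD_LNAME library than in every WT_CD library, without being called. With Cxcr4 these are 4 of the 29 tested genes, or 13.8%, against 5.31% of all tested genes; no chemokine gene lay wholly below, against 2.54% of all tested genes. Cxcl10, induced by interferon and a ligand of Cxcr3, had 2.54, 2.04 and 1.24 CPM in KO_HFD_LNAME, against 0.891, 0.470, 0.674 and 0.479 CPM in WT_HFD_LNAME and 0, 0, 0.375 and 0.140 CPM in WT_CD. Its 3 groups did not overlap, with KO_HFD_LNAME highest and WT_CD lowest, and the chow libraries hold 6 Cxcl10 counts in all. Cxcl10 passed the filter on low counts through KO_HFD_LNAME, where it is highest, so this order is no independent support for a difference. The log2 fold change of WT_HFD_LNAME against WT_CD was 2.12 ± 0.71 (SE; edgeR adjusted p = 0.172), 3.21 without WT_CD 3 and 1.32 without WT_CD 1 and 2. Cxcl10 lies inside the gene Art3, and reads of the pair cannot be told apart where exons overlap. Cxcl14, made by fibroblasts and epithelia, had 6.70, 4.25 and 13.4 CPM in KO_HFD_LNAME, against 4.45, 11.6, 7.25 and 4.25 CPM in WT_HFD_LNAME and 0.239, 1.40, 3.46 and 2.31 CPM in WT_CD. The treated groups covered the same range, and the log2 fold change of WT_HFD_LNAME against WT_CD was 1.85 ± 0.60 (SE; edgeR adjusted p = 0.158). DESeq2 on the same counts called Cxcl14 as well as Cxcr4 in this comparison. Ccl5, a ligand made by T and natural killer cells, had 26.6, 2.38 and 2.41 CPM in KO_HFD_LNAME, against 1.86, 1.03, 3.03 and 1.37 CPM in WT_HFD_LNAME and 0.239, 0.600, 0.468 and 0.70 CPM in WT_CD. KO_HFD_LNAME 1 stood far above all others, and the chow libraries were lowest. Ccl5 also passed the filter on low counts through the treated libraries, so this order is no independent support for a difference. For Ccl5 the log2 fold change of WT_HFD_LNAME against WT_CD was 1.80 ± 0.89 (SE; edgeR adjusted p = 0.370), while the authors' deposited table calls it, with a log2 fold change of 1.15 and an adjusted p of 0.0276.

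The promoters of Cxcr4, Cxcl10 and Cxcl14 are shown because these genes were higher in every treated library than in every chow library; the sequence of Ccl5 is not shown. Each is the RefSeq sequence of the GRCm38.p6 build from 250 bases before to 50 bases after a start site of the gene. All are given on the gene's strand, which is the minus strand. For Cxcl14 that start site lies inside the gene as annotated (chromosome 13, 56288643 to 56296811), and so does the whole sequence shown. Capitals mark matches on either strand to the interferon-response motif (GAAA, a pair of any bases, then GAAA again), the STAT motif TTCNNNGAA and the NF-kappaB consensus.
Cxcl10, chr5:92348840-92349139: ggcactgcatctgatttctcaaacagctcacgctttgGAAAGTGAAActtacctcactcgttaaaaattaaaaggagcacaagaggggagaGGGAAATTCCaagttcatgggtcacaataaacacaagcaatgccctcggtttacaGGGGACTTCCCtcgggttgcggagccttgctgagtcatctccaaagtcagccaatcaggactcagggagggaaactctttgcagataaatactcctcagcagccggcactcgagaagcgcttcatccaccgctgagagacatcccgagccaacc
Cxcl14, chr13:56296502-56296801: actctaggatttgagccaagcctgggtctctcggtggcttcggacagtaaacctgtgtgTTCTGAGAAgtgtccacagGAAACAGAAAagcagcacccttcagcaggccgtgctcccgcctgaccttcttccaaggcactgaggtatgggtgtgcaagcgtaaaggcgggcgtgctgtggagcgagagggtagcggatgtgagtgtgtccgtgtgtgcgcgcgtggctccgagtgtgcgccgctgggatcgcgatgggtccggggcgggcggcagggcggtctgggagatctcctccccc
Cxcr4, chr1:128592250-128592549: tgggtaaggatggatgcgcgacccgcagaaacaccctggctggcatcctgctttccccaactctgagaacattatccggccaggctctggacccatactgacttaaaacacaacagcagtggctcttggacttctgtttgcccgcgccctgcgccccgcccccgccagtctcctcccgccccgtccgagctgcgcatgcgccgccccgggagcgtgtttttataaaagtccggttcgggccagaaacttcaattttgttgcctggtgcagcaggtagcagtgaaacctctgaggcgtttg
The Cxcl10 promoter held 1 interferon-response match, starting 213 bases before the start site, and 3 NF-kappaB matches, of which the 2 nearest to the start overlap each other. The Cxcl14 sequence, which lies inside the annotated gene, held 1 interferon-response match and 1 STAT match. The Cxcr4 promoter held none of these letters. Among 27025 mouse promoters of that length, the interferon-response motif was in 3.49%, the NF-kappaB consensus in 8.18% and the STAT motif in 8.47%. Of the 46 chemokine and receptor genes with a promoter in the table, 3 held the interferon-response motif (Ccl19, Cxcl10 and Cxcl14), 10 the NF-kappaB consensus and 3 the STAT motif. These matches describe letters only.

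No other gene of the family was called by edgeR in WT_HFD_LNAME against WT_CD. The median log2 fold change of the 29 tested genes was 0.22, against -0.027 over all tested genes, and 19 of 29 were above 0 (46.1% of all tested genes). Without WT_CD 1 and 2 that median was 0.031, against -0.024 over all tested genes, and leaving out 1 library gave 0.12 (without WT_HFD_LNAME 3) to 0.34. At an unadjusted p under 0.05 stood 3 of the 29 (Cxcr4, Cxcl14 and Cxcl10), or 10.3%, all higher, against 15.1% of all tested genes in either direction and 9.13% that were higher. Cxcl9, a Cxcr3 ligand induced by interferon gamma, had 6.40, 9.50, 17.9 and 3.36 CPM in WT_HFD_LNAME, against 2.03, 1.10, 8.15 and 4.06 CPM in WT_CD. The groups overlapped, and its log2 fold change was 1.25 ± 0.62 (SE; edgeR adjusted p = 0.374). Ccl2, the main monocyte attractant, had 1.38, 5.46, 3.03 and 1.44 CPM in WT_HFD_LNAME, against 1.31, 3.40, 1.87 and 1.40 CPM in WT_CD, with a log2 fold change of 0.49 ± 0.47 (SE; edgeR adjusted p = 0.680). Its receptor Ccr2 ran from 2.67 to 8.19 CPM in WT_HFD_LNAME and from 0.597 to 7.21 CPM in WT_CD, so both partners overlapped. 

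Cell type markers also differed between WT_HFD_LNAME and WT_CD. All 9 endothelial markers had a log2 fold change above 0, 1 of them was called (Clec14a), and their summed level was 658 to 1161 CPM in WT_HFD_LNAME and 216 to 524 CPM in WT_CD. Summed B cell and plasma cell markers were 70.9 to 429 CPM in WT_HFD_LNAME and 10.9 to 29.3 CPM in WT_CD; all 7 tested of the 10 had a log2 fold change above 0 and 2 were called (Ighm and Igkc). Summed T and natural killer cell markers were 4.42 to 8.17 CPM in WT_HFD_LNAME and 1.91 to 4.40 CPM in WT_CD, with none of 8 tested called. Of the 8 nerve markers 6 were called higher, and their sum was 112 to 722 CPM in WT_HFD_LNAME and 73.1 to 137 CPM in WT_CD. Macrophage and monocyte markers overlapped, at 336 to 580 CPM in WT_HFD_LNAME and 360 to 724 CPM in WT_CD, with none of 13 called. No marker of these 5 lists was at 0 throughout a group, and their part in the chemokine results was not tested. In a bulk sample, fewer cells of a type and less RNA per cell cannot be told apart.

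Loss of MPST in treated aorta gave no called chemokine or receptor gene. In KO_HFD_LNAME against WT_HFD_LNAME, 0 of the 29 tested genes were called by edgeR and 0 by DESeq2; edgeR called 2 of all tested genes (0.014%), Mpst and Tnip1. At an unadjusted p under 0.05 stood 5 of the 29, or 17.2%, all with higher values in KO_HFD_LNAME, against 5.12% of all tested genes in either direction and 3.25% that were higher. The median log2 fold change of the 29 was 0.42, against -0.014 over all tested genes, and 22 of 29 were above 0, against 47.7% of all tested genes. Without KO_HFD_LNAME 3 that median was 0.098, and without KO_HFD_LNAME 1 it was 0.37. In 4 of the 29 genes (13.8%) every knockout library lay above every treated wild-type library, against 4.41% of all tested genes. They included Cx3cr1, Cx3cl1 and Cxcl10. No chemokine gene lay wholly below, against 3.46% of all tested genes.

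Both partners of the fractalkine pair were among them. Cx3cr1 (Entrez 13051; chromosome 9, 120048683 to 120068296), the receptor of patrolling monocytes and many macrophages, had 6.16, 2.77 and 4.74 CPM in KO_HFD_LNAME, against 1.54, 1.32, 1.77 and 0.822 CPM in WT_HFD_LNAME and 2.62, 0.70, 2.81 and 0.560 CPM in WT_CD. All knockout libraries lay above the treated wild types, while the chow libraries overlapped the knockout libraries. Its log2 fold change of KO_HFD_LNAME against WT_HFD_LNAME was 1.74 ± 0.54 (SE; edgeR adjusted p = 0.762), while the authors' deposited table calls it, with a log2 fold change of 0.998 and an adjusted p of 0.0199. Cx3cl1 (fractalkine, Entrez 20312; chromosome 8, 94772180 to 94782427), a chemokine tethered to the endothelial surface, had 18.5, 19.8 and 18.1 CPM in KO_HFD_LNAME, against 10.7, 12.8, 14.7 and 14.0 CPM in WT_HFD_LNAME and 16.8, 8.40, 7.49 and 11.1 CPM in WT_CD. The knockout libraries were tightly grouped and above all 8 wild-type libraries. The log2 fold change of Cx3cl1 was 0.52 ± 0.24 (SE; edgeR adjusted p = 0.95) against WT_HFD_LNAME and 0.78 ± 0.24 (adjusted p = 0.190) against WT_CD. The predicted genes Gm51543 and Gm33858 overlap Cx3cl1 and Cx3cr1.

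For Cxcl10, whose levels by library stand above, the log2 fold change against WT_HFD_LNAME was 1.61 ± 0.56 (SE; edgeR adjusted p = 0.824). Cxcl16, a second tethered chemokine and the ligand of Cxcr6, had 18.9, 14.3 and 20.7 CPM in KO_HFD_LNAME, against 12.1, 10.1, 15.0 and 11.2 CPM in WT_HFD_LNAME and 15.9, 9.90, 11.7 and 13.2 CPM in WT_CD. Its groups overlapped by 1 library on each side, KO_HFD_LNAME 2 and WT_HFD_LNAME 3, and its log2 fold change was 0.57 ± 0.20 (SE; edgeR adjusted p = 0.819). Cxcl16 overlaps Zmynd15. For Ccl5 the log2 fold change was 2.51 ± 0.79 (SE; edgeR adjusted p = 0.762) and rested on KO_HFD_LNAME 1: without that library it was 0.37. The authors' deposited table gives no p for Ccl5 in this comparison.

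**Figure D2:**
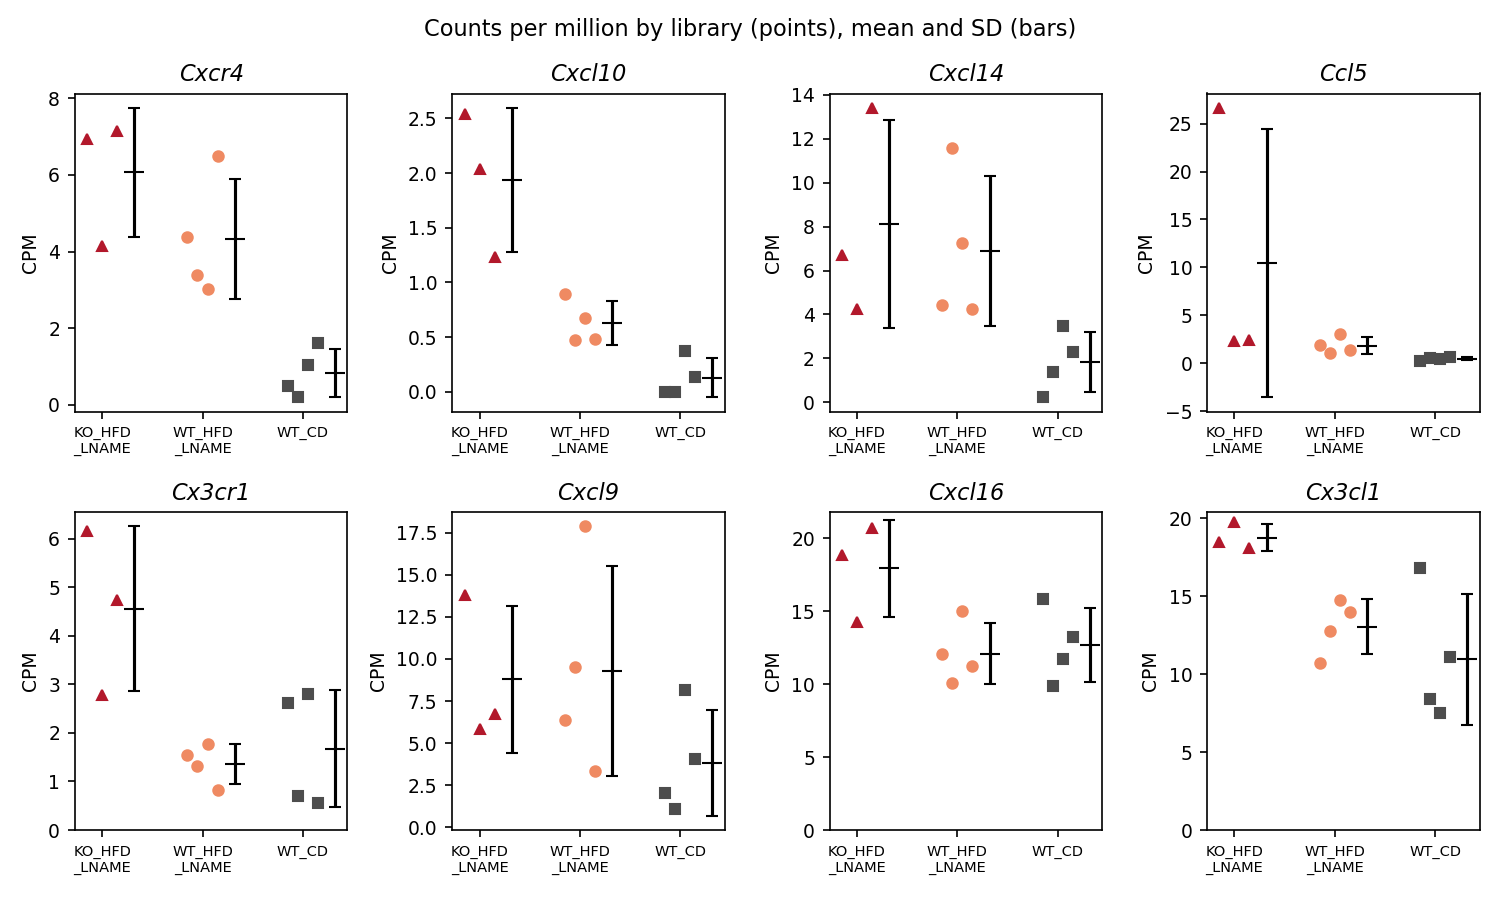
CPM of Cxcr4, Cxcl10, Cxcl14, Ccl5, Cx3cr1, Cxcl9, Cxcl16 and Cx3cl1 in each library (points), with the mean and SD of the 3 KO_HFD_LNAME, 4 WT_HFD_LNAME and 4 WT_CD libraries (bars). Cxcr4, Cxcl10, Cxcl14 and Ccl5 lie higher in both treated groups than in WT_CD; Cx3cr1 and Cx3cl1 lie highest in KO_HFD_LNAME; 1 knockout library sets the mean of Ccl5.

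Marker genes of leukocytes were measured beside these genes. All 8 tested of the 13 T and natural killer cell markers had a log2 fold change above 0 and an unadjusted p under 0.05 in KO_HFD_LNAME against WT_HFD_LNAME, none was called, and their summed level was 60.0, 13.2 and 16.2 CPM in KO_HFD_LNAME, against 4.42 to 8.17 CPM in WT_HFD_LNAME. Of the 10 B cell and plasma cell markers, all 7 tested had a log2 fold change above 0 but 0 had an unadjusted p under 0.05, and their sums, of 159 to 654 CPM in KO_HFD_LNAME and 70.9 to 429 CPM in WT_HFD_LNAME, overlapped. Dendritic cell markers, which include the chemokine gene Ccl17, summed to 26.4 to 34.8 CPM in KO_HFD_LNAME and 16.1 to 25.5 CPM in WT_HFD_LNAME, with none of 5 tested called. Macrophage and monocyte markers summed to 538, 553 and 960 CPM in KO_HFD_LNAME and 336 to 580 CPM in WT_HFD_LNAME, and all 13 had a log2 fold change above 0 with none called. No marker of these 4 lists was at 0 in every library of a group. The part of these markers in the chemokine results was not tested.

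Ccr9, the receptor of Ccl25 on thymocytes and gut-homing T cells, was too low for the filter. It had 31, 25 and 10 counts in KO_HFD_LNAME, against 1, 1, 3 and 0 counts in WT_HFD_LNAME and 2, 0, 1 and 1 counts in WT_CD. Every knockout library was above every wild-type library. Its mean was 1.5 CPM in KO_HFD_LNAME and 0.107 CPM in WT_HFD_LNAME. An exact two-sided permutation test over libraries gave p = 0.0571, the smallest p that 3 against 4 libraries allow. The adjusted p of that test was 0.343 over 24 tests of 8 genes, chosen after their values were seen. The 8 genes were those below the filter with 50 or more counts in all, which Ccr9 reached only through KO_HFD_LNAME. The test therefore adds no support to the counts. The authors' deposited table calls Ccr9, with a log2 fold change of 0.877 and an adjusted p of 0.0273. By edgeR without the filter on low counts, its log2 fold change was 3.73 and its adjusted p 0.755. The sizes of these fold changes cannot be compared, since the authors' model is not given. Gm17021 overlaps Ccr9. In the authors' deposited tables, 2 of 37 chemokine genes with an adjusted p were called in KO_HFD_LNAME against WT_HFD_LNAME (Ccr9 and Cx3cr1), against 0.403% of all genes, and 2 of 40 in WT_HFD_LNAME against WT_CD (Ccl5 and Cxcr4), against 3.84% of all genes. Ccl25, the ligand of Ccr9, had 1.62, 0.963 and 1.86 CPM in KO_HFD_LNAME, against 1.38, 1.22, 2.86 and 0.753 CPM in WT_HFD_LNAME, and overlapped.

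**Figure D3:**
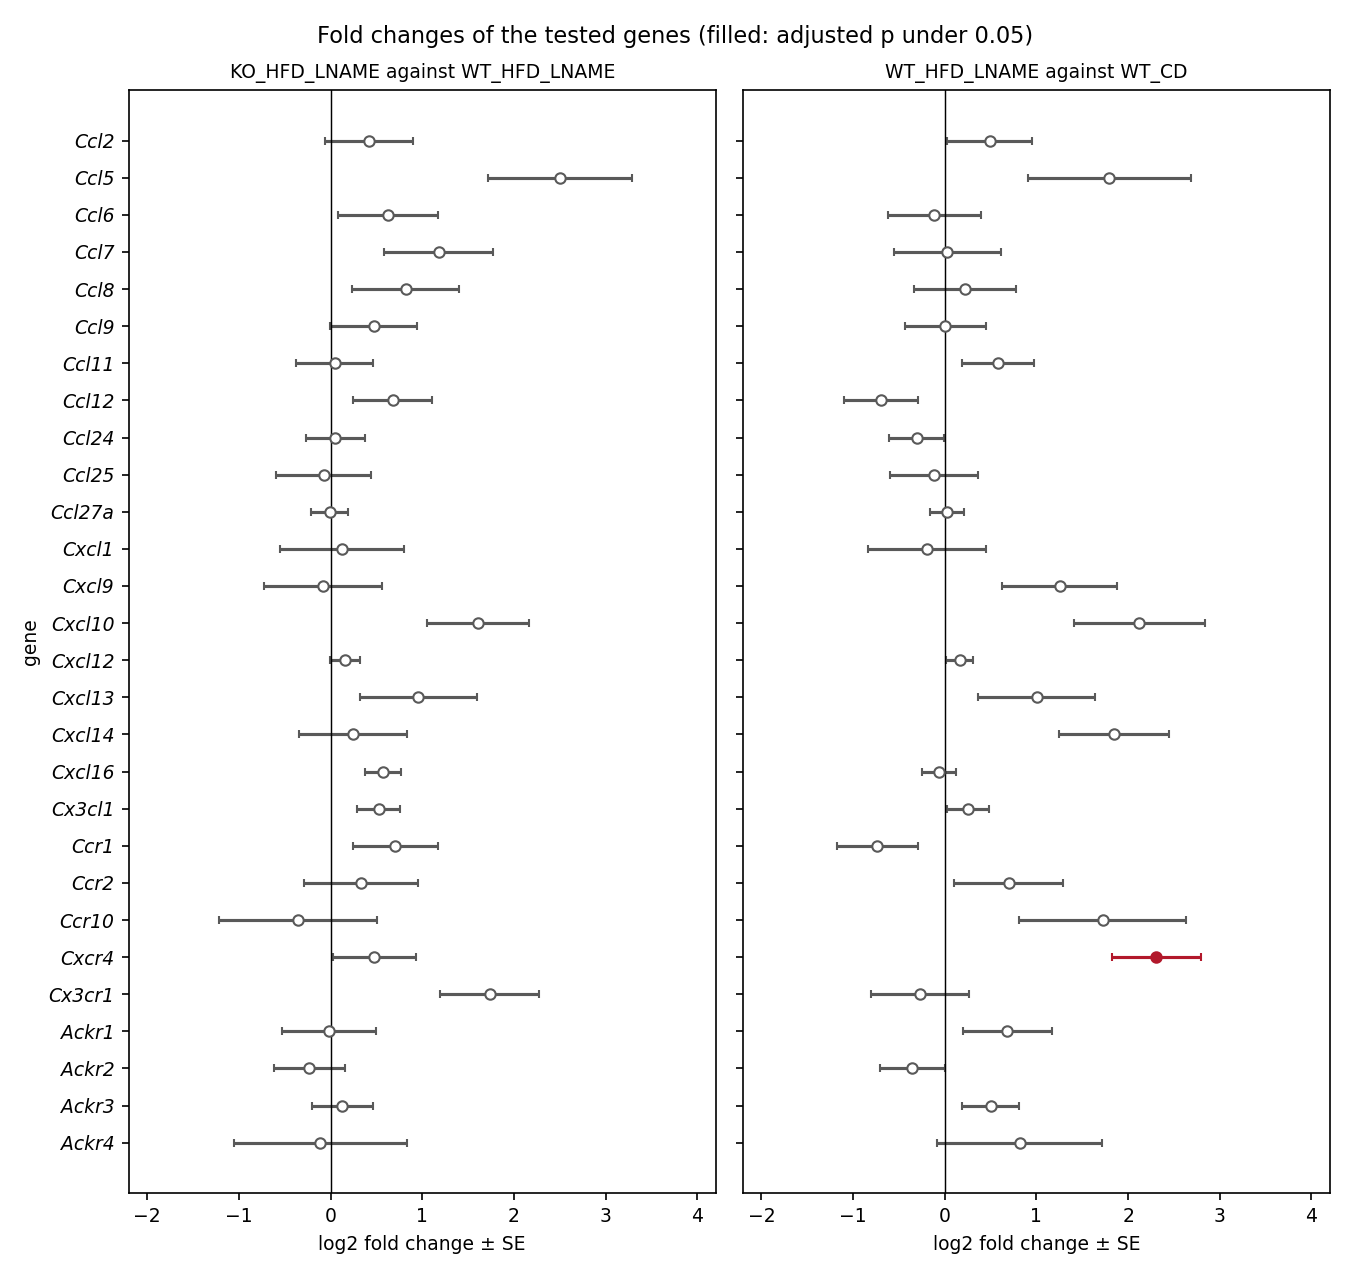
Log2 fold change (x axis, points) and SE (bars) of 28 of the 29 tested genes in KO_HFD_LNAME against WT_HFD_LNAME (left) and WT_HFD_LNAME against WT_CD (right), which share the WT_HFD_LNAME libraries. The filled point, Cxcr4 at 2.31, was the 1 gene called.

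The third comparison combines genotype and treatment, KO_HFD_LNAME against WT_CD, and shares libraries with each of the others. By edgeR 0 of the 29 tested genes were called (0.315% of all tested genes), 8 stood at an unadjusted p under 0.05, all higher, against 13.3% of all tested genes in either direction and 8.55% that were higher, and DESeq2 called Cxcr4, Cxcl10 and Cxcl14. The median log2 fold change was 0.66, against -0.041 over all tested genes, and it was 0.37 without WT_CD 1 and 2. Every knockout library lay above every chow library for 6 genes (20.7%, against 7.86% of all tested genes): Cxcr4, Cxcl10, Ccl5, Cxcl14, Cx3cl1 and Ccl2. None lay wholly below, against 5.19% of all tested genes, and 23 of 29 had a log2 fold change above 0, against 44.3%. The log2 fold change of Cxcl10 was 3.73 ± 0.68 (SE; edgeR adjusted p = 0.0519), that of Ccl5 was 4.30 ± 0.89 (adjusted p = 0.0770) and that of Cxcl14 was 2.09 ± 0.62 (adjusted p = 0.178). That of Cxcl10 was 4.81 without WT_CD 3, where it was called (edgeR adjusted p = 0.0264), and 2.93 without WT_CD 1 and 2 (adjusted p = 0.187); over all alternatives its adjusted p ran from 0.000105 (DESeq2) to 0.187. Without KO_HFD_LNAME 1 the log2 fold change of Ccl5 was 2.17. Cxcl13, the B cell attractant, had 12.1, 1.70 and 8.18 CPM in KO_HFD_LNAME, against 2.43, 3.01, 6.91 and 2.67 CPM in WT_HFD_LNAME and 1.19, 0.600, 2.72 and 2.80 CPM in WT_CD. KO_HFD_LNAME 2 fell among the chow libraries, and the log2 fold change was 1.96 ± 0.67 (SE; edgeR adjusted p = 0.230).

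Several low genes were concentrated in a single knockout library. Ccl19, which guides T cells and dendritic cells, had 33 counts (2.54 CPM) in KO_HFD_LNAME 1 and 0 in all 10 other libraries. Its receptor Ccr7 had 151, 3 and 12 counts in KO_HFD_LNAME, against 4, 6, 9 and 2 in WT_HFD_LNAME and 4, 2, 2 and 1 in WT_CD. Cxcr5, the receptor of Cxcl13, had 56, 0 and 3 counts in KO_HFD_LNAME, against 0, 1, 7 and 1 in WT_HFD_LNAME and 0, 0, 0 and 1 in WT_CD. These genes were high in 1 library, not in the group. Ccl22, a ligand of Ccr4, had 44, 3 and 18 counts in KO_HFD_LNAME, against 4, 7, 5 and 0 in WT_HFD_LNAME and 0 in all 4 WT_CD libraries. Over the groups, Ccl22 was at least 20.8-fold higher in KO_HFD_LNAME and at least 4.68-fold higher in WT_HFD_LNAME than in WT_CD, set against a floor of 3 counts over the chow group. In a calculation added after seeing the data, the bound for KO_HFD_LNAME was 9.42-fold without KO_HFD_LNAME 1 and 32.5-fold without KO_HFD_LNAME 2. The bound for WT_HFD_LNAME was 3.35-fold without WT_HFD_LNAME 2 and 6.63-fold without WT_HFD_LNAME 4, the library with 0 counts. These bounds pool counts over libraries and leave out the spread between them. Cxcr3, the receptor of Cxcl9 and Cxcl10 on activated T cells, had 30, 9 and 10 counts in KO_HFD_LNAME, against 4, 1, 10 and 3 in WT_HFD_LNAME and 4, 3, 5 and 4 in WT_CD. Its highest library was again KO_HFD_LNAME 1, and the groups of treated mice overlapped. The summed B cell and plasma cell markers were 654, 159 and 172 CPM in KO_HFD_LNAME, against 75.3, 70.9, 429 and 132 CPM in WT_HFD_LNAME. Markers of lymph node stroma, a list that holds Ccl19 and Cxcl13 themselves, summed to 137, 60.8 and 71.9 CPM in KO_HFD_LNAME. Their sums were 53.9 to 70.6 CPM in WT_HFD_LNAME and 50.1 to 64.7 CPM in WT_CD. The part of these markers in the pattern was not tested. Of the 44 chemokine and receptor genes with at least 20 counts in all, 18 were highest in KO_HFD_LNAME 1 and 13 in KO_HFD_LNAME 3.

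**Figure D4:**
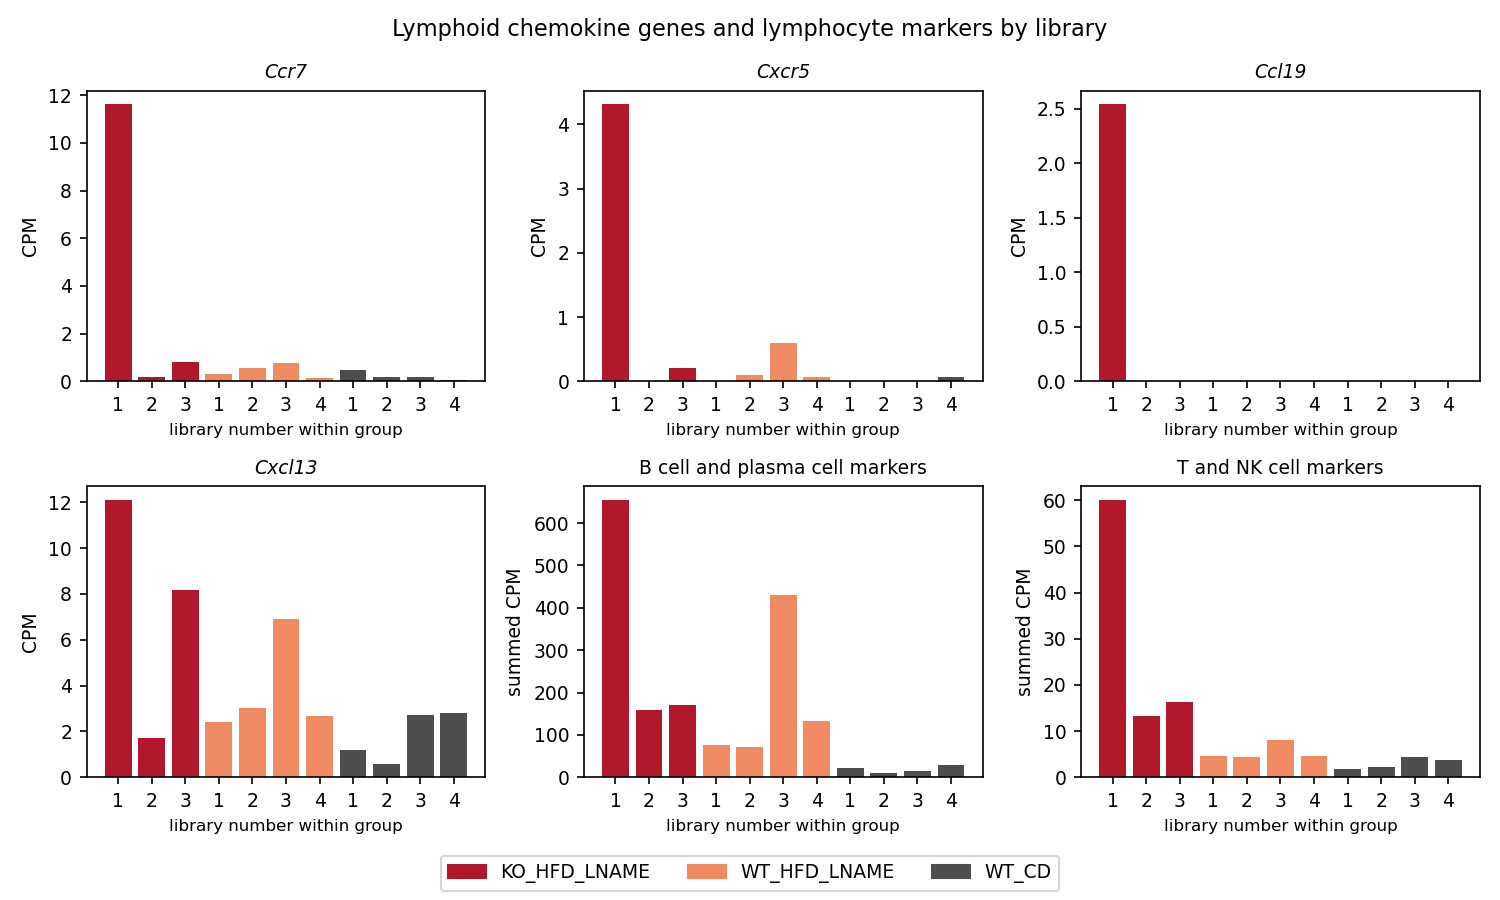
CPM of Ccr7, Cxcr5, Ccl19 and Cxcl13 and summed CPM of 10 B cell and plasma cell markers and 13 T and NK cell markers, with a bar per library. KO_HFD_LNAME 1 is the highest bar in all 6 panels, and WT_HFD_LNAME 3 is next in B cell markers.

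Of the 32 untested genes, 5 had 0 counts in every library (Ccl20, Ccl21a, Ccl21d, Ccl27b and Cxcl3), 19 had 1 to 41 counts over all libraries, and 8 had 50 or more: Ccl22, Ccl28, Ccr7, Ccr9, Cxcr2, Cxcr3, Cxcr5 and Cxcr6. In the exact permutation tests of these 8 genes none had an adjusted p under 0.34. With 3 or 4 libraries a group and 24 tests, none could have fallen under 0.05, so this is no result on these genes. Ccl22, Ccr7, Ccr9 and Cxcr5 also reached 50 counts only through KO_HFD_LNAME, where they were highest. Ccl21a, Ccl21b and Ccl21d, and Ccl27a and Ccl27b, are near-identical copies, and how reads with several alignments were counted is not given in the sources used here, so their values are uncertain. Of 5 ligands that attract neutrophils, 1 passed the filter on low counts. This was Cxcl1, a ligand of Cxcr2, which had 1.62 to 2.13 CPM in KO_HFD_LNAME, 0.411 to 3.29 CPM in WT_HFD_LNAME and 0.910 to 4.41 CPM in WT_CD. Its log2 fold change was 0.13 ± 0.68 (SE) in KO_HFD_LNAME against WT_HFD_LNAME and -0.19 ± 0.64 in WT_HFD_LNAME against WT_CD. Cxcr2 had 17, 6 and 2 counts in KO_HFD_LNAME, 2, 1, 4 and 4 in WT_HFD_LNAME and 1, 4, 11 and 3 in WT_CD. The 10 neutrophil markers, Cxcr2 itself among them, summed to 5.43 to 9.57 CPM in KO_HFD_LNAME and 4.21 to 6.40 CPM in WT_HFD_LNAME. They summed to 1.67 to 31.8 CPM in WT_CD, where WT_CD 3 was highest. Ly6g and Mpo were at 0 in all treated libraries of both genotypes, and Elane was at 0 in all KO_HFD_LNAME and WT_CD libraries.

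The atypical receptors did not separate the groups. Ackr1, which carries chemokines across venular endothelium, had 6.23, 5.72 and 5.91 CPM in KO_HFD_LNAME, against 6.80, 5.17, 6.91 and 5.20 CPM in WT_HFD_LNAME and 1.19, 1.5, 8.52 and 3.64 CPM in WT_CD. WT_CD 3 was its highest library and WT_CD 1 and 2 its lowest, and Ackr1 was called in WT_HFD_LNAME against WT_CD only when WT_CD 3 was left out, among the alternatives run. Ackr3 had 79.9, 73.1 and 93.8 CPM in KO_HFD_LNAME, against 52.0, 87.7, 112 and 48.96 CPM in WT_HFD_LNAME and 35.1, 38.0, 75.1 and 64.0 CPM in WT_CD, and overlapped. Ackr2, which degrades inflammatory CC ligands, and Ackr4, which degrades Ccl19, Ccl21 and Ccl25, had log2 fold changes of -0.23 ± 0.39 and -0.11 ± 0.95 (SE) in KO_HFD_LNAME against WT_HFD_LNAME. Ackr4 overlaps Acad11, and Ackr1 overlaps Cadm3.

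Genes downstream and upstream of the receptors were counted from lists. Of 35 tested genes of chemokine signal transduction, 0 were called in KO_HFD_LNAME against WT_HFD_LNAME, 1 was called in WT_HFD_LNAME against WT_CD and 1 in KO_HFD_LNAME against WT_CD, against 0.014%, 1.48% and 0.315% of all tested genes; in both cases the gene was Rgs1, which shortens signalling through G proteins. Rgs1 had 4.93, 4.25 and 1.65 CPM in KO_HFD_LNAME, against 3.81, 2.07, 2.53 and 3.01 CPM in WT_HFD_LNAME and 0.119, 0.300, 0.468 and 0.630 CPM in WT_CD. Like Cxcr4, Rgs1 was higher in every treated library than in every chow library. It also passed the filter on low counts through the treated libraries, so this order is no independent support for a difference. Rgs1 rose by a log2 fold change of 2.81 ± 0.48 (SE, edgeR adjusted p = 0.0269) in WT_HFD_LNAME and 3.14 ± 0.49 (adjusted p = 0.0392) in KO_HFD_LNAME, both against WT_CD. These calls were lost in 10 and 13 of 19 alternative settings. In KO_HFD_LNAME against WT_HFD_LNAME, 9 of the 35 genes stood at an unadjusted p under 0.05, all higher, against 5.12% of all tested genes in either direction and 3.25% that were higher. Those of smallest p were Fgr, a kinase of myeloid cells (log2 fold change 2.07 ± 0.46, adjusted p = 0.726), and Dock2, which drives leukocyte migration (1.33 ± 0.37, adjusted p = 0.732). Of 19 tested genes that process or bind chemokines, 0, 1 and 0 were called in the same order of comparisons, against the same shares of all tested genes (0.014%, 1.48% and 0.315%). The called gene was Adam10, a protease that sheds Cx3cl1 and Cxcl16. It had 53.5, 52.0 and 49.1 CPM in KO_HFD_LNAME, against 54.6, 67.8, 65.6 and 62.2 CPM in WT_HFD_LNAME and 44.3, 47.3, 43.3 and 39.6 CPM in WT_CD. Every treated library lay above every chow library, and Adam10 rose by 0.52 ± 0.10 on the log2 scale (SE; edgeR adjusted p = 0.0372) in WT_HFD_LNAME against WT_CD, a call that was lost in 16 of 19 alternative settings. In KO_HFD_LNAME against WT_CD the genes of smallest p in this list were the macrophage elastase gene Mmp12 (log2 fold change 4.49 ± 1.03, adjusted p = 0.0965) and Dpp4, which trims chemokines (1.96 ± 0.47, adjusted p = 0.0997), and in KO_HFD_LNAME against WT_HFD_LNAME they were Adam10 (-0.28 ± 0.11, adjusted p = 0.881) and Mmp9 (1.31 ± 0.54, adjusted p = 0.939). Of 18 tested inducers and regulators of chemokine transcription, 1, 0 and 1 were called (0.014%, 1.48% and 0.315% of all tested genes), both times Tnip1, which restrains NF-kappaB signalling. Tnip1 had 49.4, 44.6 and 48.9 CPM in KO_HFD_LNAME, against 20.3, 21.6, 22.4 and 25.4 CPM in WT_HFD_LNAME and 18.3, 17.3, 22.9 and 19.7 CPM in WT_CD. All knockout libraries lay above all wild-type libraries, and Tnip1 rose by a log2 fold change of 1.08 ± 0.12 (SE; edgeR adjusted p = 0.0148) against WT_HFD_LNAME and 1.28 ± 0.12 (adjusted p = 0.00297) against WT_CD. The call against WT_HFD_LNAME was lost in 10 of 19 alternative settings, with the log2 fold change between 1.03 and 1.18. In WT_HFD_LNAME against WT_CD the genes of smallest p in this list were Irf7 (log2 fold change 0.46 ± 0.23, adjusted p = 0.374) and Stat6 (-0.20 ± 0.10, adjusted p = 0.387), both transcription factors.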

How the data were processed

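The deposited read counts per gene, whole numbers without normalization, come from 11 libraries in 3 groups. Per the submitters' processing notes, the authors used Trimmomatic 0.39, HISAT2 2.2.1, featureCounts 2.0.3 and DESeq2 2.11.40.7 with GRCm38 (mm10). Strand setting, multi-mapping and annotation of the counting are not given in the sources used here. The authors also deposited, for 2 comparisons, the mean normalized count (a signal value), log2 fold change, standard error, test score, p-value and adjusted p-value of each gene. Their model is not given in the sources used here. For Mpst in KO_HFD_LNAME against WT_HFD_LNAME their log2 fold change was -4.34, against -6.76 by edgeR here. The sizes of their fold changes and of those here are therefore not to be compared directly.

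Counts were tested in R 4.3.3 with edgeR 4.0.16 (filterByExpr, TMM factors, 1 mean per group over all 11 libraries, robust glmQLFit, two-sided glmQLFTest), with Benjamini-Hochberg adjustment over 14303 genes, called under 0.05. SEs of log2 fold changes follow from the F statistic. The test was tried on simulated data. Alternatives were RLE factors, DESeq2 1.42.0, no filter, only the groups compared, a replicate block, and leaving out libraries. Single values of genes below the filter were compared by exact permutation tests (SciPy 1.17.1). Of the 61 genes, 60 have an exon length (GENCODE) and 46 a promoter (RefSeq). A count of 3 corresponded to 0.170 to 0.358 CPM per library, and such floors cover counting error only.

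The members and gene lists were chosen with earlier results of these data known. Named with values were Mpst, called members, the 6 of smallest p per comparison, the 8 highest per kilobase and their partner ligands or receptors. From the other lists, called genes were named or, with none called, those of smallest p. The values of 1 tested gene are not reported here; it stays in the fits and counts. Ccr9, Ccr7, Cxcr5, Ccl19, Ccl22, Cxcr3, Ackr1, Ackr2, Ackr4, Ccl2 and Ccr2 were named after their values were seen where no part of that rule named them. No 2 libraries of the same group agreed within sampling noise, and pairs across groups were not compared in this way.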

Additional observations from a re-analysis of the deposited data

Results flagged for a closer look

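In the 23 genes named by rule, 44 groups of 4 libraries with unequal values were searched for a library whose gap to the nearest other, as a share of the group's range, exceeded Dixon's critical value. Chance flags about 5% of such groups where values are normally spread. That rate does not hold near 0 counts, since a group with a single nonzero library is always flagged. The search found 7 groups, some of them of that kind, so their number cannot be set against 5%. In WT_HFD_LNAME 3, Ccl8 stood at 9.27 CPM, against 5.10 to 5.74 CPM in the other 3 libraries of the group. In the same library Cxcl13 stood at 6.91 CPM, against 2.43 to 3.01 CPM, and Cxcr5 at 0.590 CPM, against at most 0.0941 CPM. This is also the WT_HFD_LNAME library with the highest B cell and plasma cell markers (429 CPM), whose part was not tested. Ccl9 stood at 26.1 CPM in WT_HFD_LNAME 2, against 20.3 to 20.6 CPM. A single count set apart Ccr3 in WT_HFD_LNAME 3 (0.0843 CPM) and WT_CD 3 (0.0936 CPM), and Cxcr5 in WT_CD 4 (0.0700 CPM), each with 0 in the rest of its group.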

How the results depend on the processing

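With DESeq2 the chemokine and receptor genes called were 2 in WT_HFD_LNAME against WT_CD and 3 in KO_HFD_LNAME against WT_CD, against 1 and 0 with edgeR. The 1 call in WT_HFD_LNAME against WT_CD, Cxcr4, fell to 0 with no filter on low counts, with only the 2 groups compared, without WT_CD 1 and 2, without WT_HFD_LNAME 3 and 4, and without KO_HFD_LNAME 1 and WT_HFD_LNAME 3. Leaving out 1 library at a time gave 0 to 2 calls there, with 0 for 9 of the 11 libraries, and 0 to 1 in KO_HFD_LNAME against WT_CD (Cxcr4 without WT_HFD_LNAME 3, Cxcl10 without WT_CD 3). In KO_HFD_LNAME against WT_HFD_LNAME the count was 0 in all 19 alternatives. The median log2 fold change ranged from 0.098 (without KO_HFD_LNAME 3) to 0.51 in KO_HFD_LNAME against WT_HFD_LNAME, from 0.12 to 0.34 in WT_HFD_LNAME against WT_CD and from 0.50 to 0.89 in KO_HFD_LNAME against WT_CD when 1 library was left out; without WT_CD 1 and 2 the second was 0.031 and the last 0.37. Over all tested genes the calls in the comparisons, in the order KO_HFD_LNAME against WT_HFD_LNAME, WT_HFD_LNAME against WT_CD and KO_HFD_LNAME against WT_CD, were 2, 212 and 45 with edgeR and 38, 890 and 567 with DESeq2. They were 2, 138 and 29 with no filter, 2, 32 and 3 with only the 2 groups compared, and 2, 0 and 3 without WT_CD 1 and 2. Leaving out 1 library gave 1 to 3, 2 to 523 and 4 to 103. The causes were not tested beyond the fewer samples or genes in each fit. Of 646 values of single genes under the alternatives, 572 kept direction and side of the threshold, 64 lost a call, 10 gained one and 0 changed sign.

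The labels number the replicates. With the replicate block, 1 chemokine gene (Cxcr4) was called in WT_HFD_LNAME against WT_CD, 1 (Cxcr4) in KO_HFD_LNAME against WT_CD and 0 in KO_HFD_LNAME against WT_HFD_LNAME, and over all genes 1, 42 and 13. Same-numbered libraries did not deviate together in a uniform way. Their correlations ran from -0.226 to 0.586, and 4 of 10 pairs were above 0.1. The value of 0.586, for WT_HFD_LNAME 3 with WT_CD 3, was also the highest of all pairs across groups. Of 11 libraries, 3 correlated best with their own number. Depth limits the low genes, where 3 counts are 0.170 to 0.358 CPM.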
